A study of Mus musculus with 22 samples.

Results

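The cytosolic ribosomal protein genes encode the structural proteins of the large (Rpl) and small (Rps) subunits of the ribosome. They were taken from the deposited table by symbol: Rpl or Rps followed by digits and at most a single letter a, l or x, with Rplp0, Rplp1, Rplp2 and Rpsa added, and with pseudogene names and the S6 kinases left out. In all, 78 symbols matched, and 76 of them reached a normalized count of at least 10 in at least 5 tumours, among 14278 genes that did so. By name, the 76 comprise 45 large-subunit and 31 small-subunit genes. The GENCODE M21 annotation types 74 of them as protein-coding, Rpl32l as a processed pseudogene and Rps4l as a transcribed processed pseudogene. The names that fell short were Rpl30, which had reads in 1 tumour, and Rpl39l, which had reads in 10 tumours and a highest value of 13.3. Just inside the limit was Rpl3l, at 0 to 25.2 and with 11 tumours at 10 or more. Rpl10l is not analysed here. The deposited table has no row named Rps27 or Rpl26, so the class is not complete. Whether mapping or a low RNA amount left Rpl30 with so few reads was not tested.

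The genes were followed in 22 bulk tumours that grew in the mouse pancreas from implanted PDA.7940B cells, a KPC-derived and polyclonal line of pancreatic ductal adenocarcinoma whose genotype label is WT. The groups were untreated tumours (n = 5), tumours 10 days after beta-glucan, a fungal polysaccharide, given once intravenously at 1.2 mg (n = 6), tumours 10 days after anti-CD40, the agonist antibody FGK45, given once intraperitoneally at 0.1 mg (n = 6), and tumours 10 days after both agents (the combination, n = 5, with no doses in its label). Libraries read the 3' ends of polyadenylated RNA from sections of fixed, embedded tissue, at 6.33 to 21.2 M recovered reads per tumour. The labels do not say that each tumour came from its own mouse, so a p-value here covers only sample-to-sample spread, which may be technical.

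Ribosomal proteins are made in near-equal amounts because each ribosome holds a single copy of most of them. Their mRNAs are abundant and stable, and they begin with a terminal oligopyrimidine tract, a stretch of C and T at the transcription start through which mTOR signalling controls how strongly they are translated. Growing tumour cells and secretory acinar cells of the pancreas both carry large numbers of ribosomes. A change in the translation of these mRNAs does not show in their counts.

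Pyrimidine runs near annotated starts are shown for 7 members called in the comparisons below, both with and without a run. Rpl7, Rps4l and Rpl36 are not shown. RefSeq promoters (GRCm38.p6) held 56 of the 76 members. A run of at least 8 C or T reaching within 20 bases of a start, on the gene's strand, was found in 30 of the 56 members (53.6%) and in 23.7% of 27025 genes in the same table. The definition was set after the sequences had been seen. Capitals mark every such run in the window, and are absent where there is none.
Rpl35, chr2:39005115-39005144, minus strand: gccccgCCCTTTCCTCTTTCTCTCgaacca
Rpl19, chr11:98026903-98026932, plus strand: ggggcttgggCTCTCCCCTTCgcagataat
Rpl13a, chr7:45128722-45128751, minus strand: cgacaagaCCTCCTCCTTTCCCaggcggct
Rps12, chr10:23787182-23787211, minus strand: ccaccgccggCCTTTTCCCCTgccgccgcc
Rps27l, chr9:66946053-66946082, plus strand: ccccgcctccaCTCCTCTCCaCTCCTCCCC
Rpl12, chr2:32961697-32961726, plus strand: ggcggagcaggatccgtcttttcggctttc
Rpl6, chr5:121204486-121204515, plus strand: tggtcacctcccgtcattgcttatagaccg
The windows of Rpl35 and Rpl13a, which were lower in the combination, have runs of 18 and 14 bases, while the window of Rpl12, also lower, has none of 8. In the combination against untreated, the median log2 fold change was -0.31 over the 30 members with a run and -0.33 over the 26 without. Of the 30, 7 were called lower, and of the 26, 3, against 15.8% of all genes. A difference between these counts was not tested. A match describes these letters and not a working tract.

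As a class these were among the most abundant transcripts. The mean normalized count over all tumours was at least 10000 for 19 members, 1000 to 10000 for 38, 100 to 1000 for 17 and under 100 for 2. The median of the member means was 4312, against 159 over all genes tested. Rps14, a small-subunit protein, was the most abundant at a mean of 48601, followed by Rpl37 at 28721 and Rpl23a at 25642. The lowest were Rpl3l at 9.93, Rpl32l at 38.8 and Rpl10a at 117. Values come from the 3' end of each transcript, so their order reflects both RNA amount and how well each 3' end can be mapped.

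The members took 7.38% ± 1.25 of all reads in untreated tumours (SD, n = 5), 5.93% ± 1.03 after beta-glucan (n = 6), 4.74% ± 1.54 after anti-CD40 (n = 6) and 4.20% ± 0.783 in the combination (n = 5). Single tumours ran from 5.18% to 8.27%, 4.60% to 7.37%, 1.88% to 6.20% and 3.50% to 5.32% in the same order. The share of reads in a list of acinar enzymes, which mark exocrine pancreas, was 4.61% ± 6.83, 5.23% ± 6.21, 25.3% ± 22.2 and 21.8% ± 13.8. With the acinar reads taken out of the total, the members' shares were 7.69%, 6.22%, 6.25% and 5.37%. The reads of a tumour epithelium list were 0.538%, 0.266%, 0.200% and 0.0978%, in the same order, and the part of cell composition in the results below was not tested. In bulk tissue, fewer cells of a type and less RNA per cell cannot be told apart.

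On the authors' scale, where a size factor and not the read total sets the level, the mean log2(value + 1) over the 76 members was 11.47 ± 0.33 in untreated tumours, 11.23 ± 0.07 after beta-glucan, 11.45 ± 0.14 after anti-CD40 and 11.21 ± 0.19 in the combination. Untreated 6 stood apart from its group, at 10.89 against 11.53 to 11.66 in the other untreated tumours, and it held 16.5% acinar reads against at most 3.58% in those. Anti-CD40 6 held 61.0% acinar reads and the lowest member share, 1.88%. Without untreated 6, 5 calls of members against untreated were lost, and these are given beside the members described below; without anti-CD40 6, 0 were lost.

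**Figure D1:**
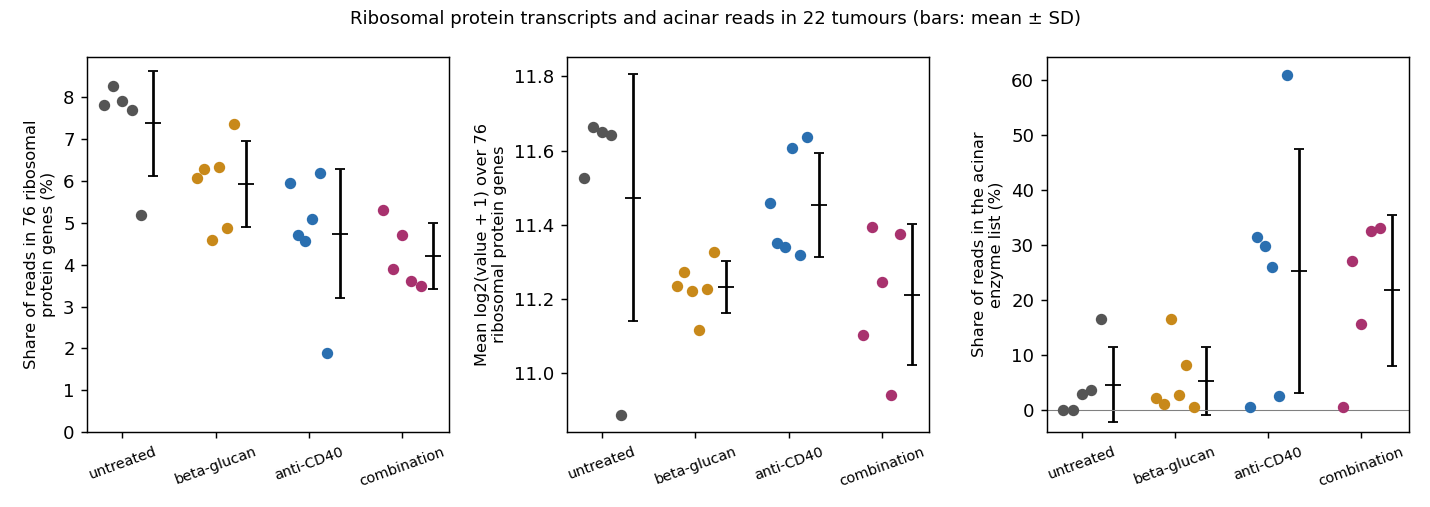
Each point is a tumour, and the bar beside each group is its mean ± SD. Left, the share of reads in the 76 genes has a mean of 7.38% in untreated tumours and 4.20% in the combination; middle, their mean log2 level, where untreated 6 sits at 10.89; right, the share of reads in the acinar list, up to 61.0% in anti-CD40 6.

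After beta-glucan most members had a group mean below that of untreated tumours, though few passed the test singly. Of the 76, 63 had a log2 fold change below 0 (82.9%, against 48.4% of all genes tested), and the median was -0.30 against 0.02 over all genes. The members share each tumour's library and size factor, so their signs, here and below, are not independent. Per tumour, their mean log2 level was 11.12 to 11.33 after beta-glucan. Untreated 6 lay below this range at 10.89, and the other untreated tumours lay above it (11.53 to 11.66). By limma's moderated test with Benjamini-Hochberg adjustment over all genes, 5 members were lower (6.58%, against 1.32% of all genes) and 1 was higher (against 5.09%). The large-subunit proteins Rpl6, Rpl19, Rpl36 and Rpl7 were among the lower, and Rps4l, a copy of the small-subunit gene Rps4x, was higher. The groups did not overlap, with beta-glucan lower, for 3 members (3.95%, against 2.87% of all genes). With every tumour scaled to the same read total, 0 of the 6 calls remained (1.81% of all genes were called), and edgeR kept those for Rpl6, Rpl19 and Rpl36 (against 5.53% of all genes).

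Rpl6 stood at 1212, 1824, 1263, 1980 and 2926 in the untreated tumours, and after beta-glucan its lowest, median and highest values were 756, 991 and 1228. Only the highest beta-glucan tumour reached the lowest untreated tumour. The log2 fold change was -0.84 ± 0.20 (SE, adjusted p = 0.0128, limma). Rpl36 had 2171, 2008, 2666, 3571 and 2265 in the untreated tumours and 1065, 1402 and 2202 as its lowest, median and highest values after beta-glucan. The groups overlapped in part, and the log2 fold change was -0.75 ± 0.20 (adjusted p = 0.0256, limma). Rpl19, a protein of the large subunit, fell by 0.79 ± 0.20 on the log2 scale (adjusted p = 0.0186, limma), with beta-glucan tumours at 183 to 301 and untreated tumours at 258 to 567. The call for Rps4l was lost in 5 of the 9 other settings. It was also lost in 13 of the 22 fits that left out 1 tumour, such as that without untreated 6 (adjusted p = 0.0941, limma). The call for Rpl19 was lost without untreated 1, and that for Rpl36 without untreated 3 or 5 or beta-glucan 2, 3 or 5. Without untreated 6, 11 members were lower (against 1.48% of all genes) and 0 higher (against 6.21%), and 72 were below 0. Without untreated 1, untreated 5, beta-glucan 3 or beta-glucan 5, left out in turn, 2 members were called, all lower, against 0.546%, 0.553%, 0.728% and 0.448% of all genes lower.

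After anti-CD40, with all tumours in the fit, the members were spread around the untreated level. Of the 76, 41 had a log2 fold change below 0 (53.9%, against 49.8% of all genes tested), and the median was -0.04 against 0.00. By limma 2 were lower (against 7.56% of all genes) and 2 were higher (against 11% of all genes). The lower members were Rpl35 and Rpl7 of the large subunit, and the higher ones Rps27l and Rps4l, copies of small-subunit genes. The median was -0.12 over the large-subunit and 0.06 over the small-subunit members, a difference that was not tested. Scaling every tumour to the same read total gave 0 higher (against 3.75% of all genes) and 12 lower (against 13%), since that scaling moved the median of all genes by -0.56. Leaving out untreated 6 put 55 of the 76 below 0, with a median of -0.19 against -0.03 over all genes, and gave 2 higher (against 12.3% of all genes) and 6 lower (against 7.66%).

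Rpl35, a protein near the exit of the peptide tunnel, showed the largest fall among the members. It had 554, 348, 432, 699 and 1128 in the untreated tumours, and its lowest, median and highest values after anti-CD40 were 76.5, 177 and 346. Every anti-CD40 tumour was below every untreated tumour, as held for 2 members (2.63%, against 4.08% of all genes). The log2 fold change was -1.66 ± 0.34 (adjusted p = 0.00138, limma), a level 0.316 times the untreated level. After beta-glucan Rpl35 was at 170 to 462, with a log2 fold change of -1.04 ± 0.34 that did not pass (adjusted p = 0.0718, limma). In the combination it had 302, 206, 274, 416 and 282 (0.498 times the untreated level, adjusted p = 0.0325, limma). That call was lost without untreated 6, the highest untreated tumour (-0.76, adjusted p = 0.0981, limma), and also without untreated 1 or 5 or combination 2, 3 or 5. As 99.3% of the 50-base words in the last 200 bases of its transcript also occur in transcripts of other genes, its reads cannot be assigned with certainty.

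The combination gave the most calls, among all genes as among the members, and called members less often than all genes (23.7% against 34%, either direction). Of the 76 members, 60 had a log2 fold change below 0 (78.9%, against 50.2% of all genes tested), and the median was -0.33 against -0.01 over all genes. By limma 16 were lower (21.1%, against 15.8% of all genes) and 2 were higher (2.63%, against 18.2%). The 16 were 12 large-subunit proteins, among them Rpl7, Rpl35, Rpl35a, Rpl19, Rpl12, Rpl13a, Rpl23a, Rpl3, Rpl13, Rpl21 and Rpl22, and 4 small-subunit proteins, among them Rps12, Rps28 and Rps26. Their log2 fold changes ran from -1.14 in Rpl7 to -0.43 in Rpl22. Of the 22 fits that left out 1 tumour, 7 lost the call for Rpl35a, 7 that for Rps26, and 6 each those for Rpl3 and Rpl13. With the acinar level as a linear term, the calls for Rpl3, Rpl35a, Rpl22, Rps12 and Rps26 were lost. Those for Rpl7, Rpl12, Rpl13a, Rpl19, Rpl21 and Rpl23a were kept in those fits and in all 9 other settings. The groups did not overlap, with the combination lower, for 6 members (7.89%, against 10.3% of all genes), and with the combination higher for 1 (1.32%, against 11.7%). Without untreated 6, 24 members were lower (against 16.4% of all genes) and 1 was higher (against 18.8%). Without untreated 1, 2 or 5, left out in turn, 10 were lower (against 13.2%, 14.2% and 13.1% of all genes) and 1 was higher (against 15.8%, 16.6% and 16.2%). Over all 4 groups, a limma F test passed for 13 members (17.1%, against 28.1% of all genes).

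Rpl7, which lies on the large subunit and binds its RNA, was lower in all 3 treated groups, though the beta-glucan call was lost when some single tumours were left out. Its untreated tumours had 23164, 22519, 20684, 25207 and 30129, and its combination tumours 11076, 9063, 11563, 16484 and 8268. The lowest, median and highest values were 10524, 15936 and 20094 after beta-glucan and 10478, 14804 and 17608 after anti-CD40. Every treated tumour lay below every untreated tumour. The log2 fold changes were -0.69 ± 0.19 after beta-glucan (adjusted p = 0.0301), -0.76 ± 0.19 after anti-CD40 (adjusted p = 0.00686) and -1.14 ± 0.20 in the combination (adjusted p = 0.00011), all by limma. The beta-glucan call was lost without untreated 6 (-0.61, adjusted p = 0.0594, limma), and also without untreated 1, 2 or 5 or beta-glucan 3 or 5, with equal totals and by edgeR. These comparisons share the untreated tumours, and neither the difference of the combination from beta-glucan (-0.45 ± 0.19, adjusted p = 0.121) nor that from anti-CD40 (-0.38 ± 0.19, adjusted p = 0.351) passed by limma.

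Rpl12, part of the stalk base that recruits translation factors, shares none of the 50-base words at its 3' end with other genes. It had 11812, 11747, 11980, 11624 and 10016 in the untreated tumours and 6938, 7035, 7938, 7885 and 6582 in the combination. These groups did not overlap, and the log2 fold change was -0.65 ± 0.17 (adjusted p = 0.00362, limma). After a single agent Rpl12 was at -0.30 ± 0.16 (beta-glucan) and -0.14 ± 0.16 (anti-CD40) on the log2 scale, and neither passed the test. Rpl13a, known also for its release from the ribosome under interferon-gamma, fell by 0.65 ± 0.18 on the log2 scale in the combination (adjusted p = 0.00751, limma).

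**Figure D2:**
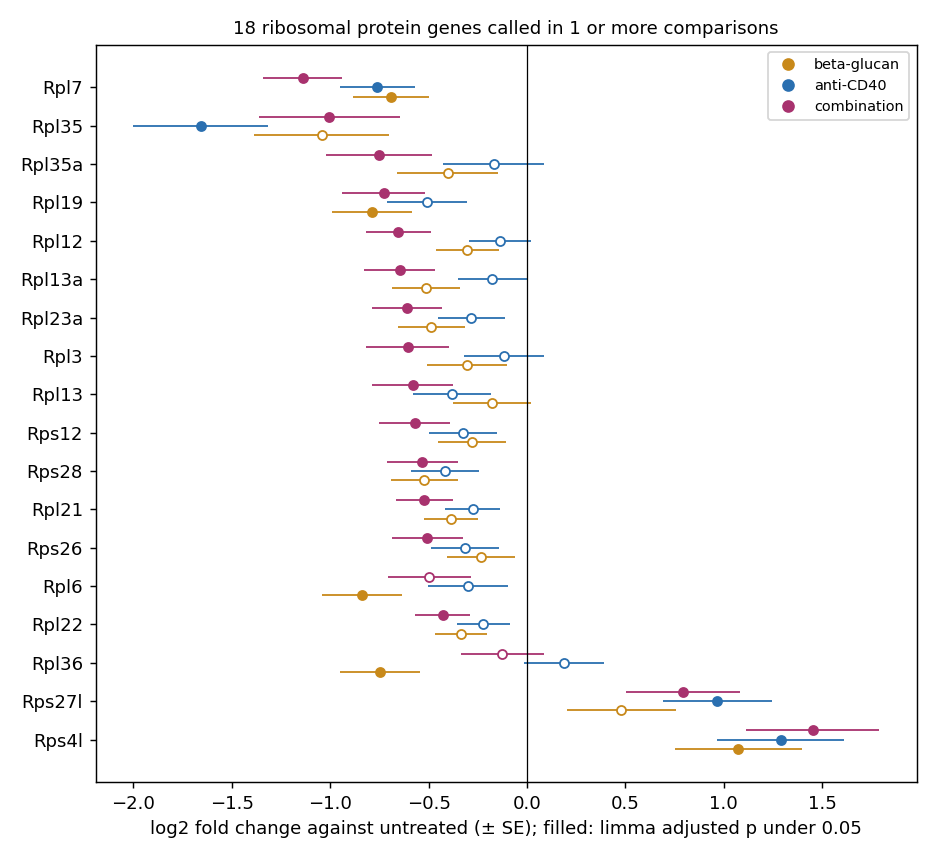
Points are log2 fold changes against untreated with SE for 18 of the 20 members called in 1 or more of the 3 comparisons, filled where the limma adjusted p is under 0.05. Rpl7, from -0.69 to -1.14, and Rps4l, from 1.07 to 1.45, are filled in all 3.

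**Figure D3:**
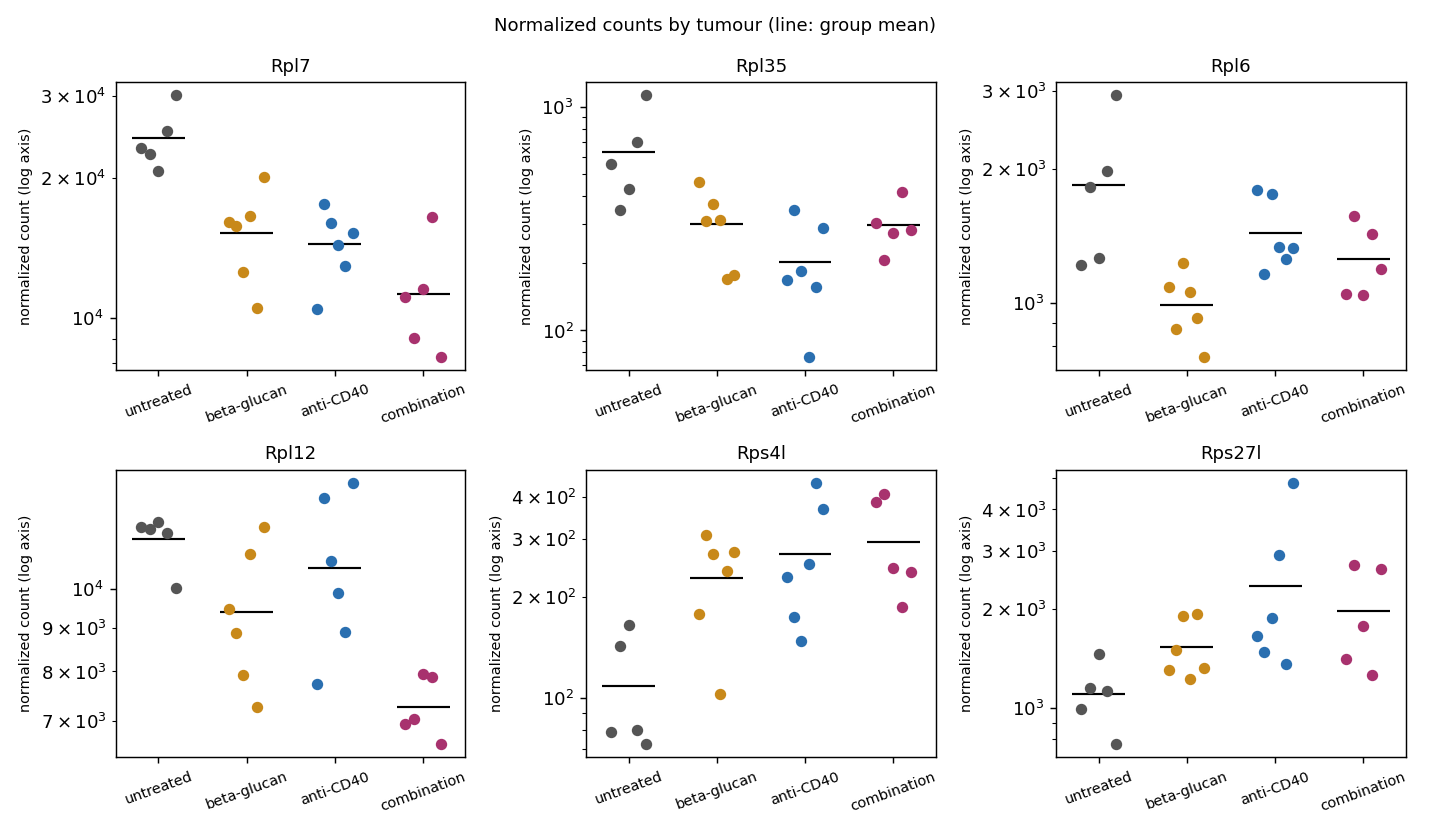
Each point is the normalized count of a tumour on a log axis, and the line is the group mean. The untreated tumours lie above all treated tumours for Rpl7, and below all combination tumours for Rps4l.

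The 2 members called higher against untreated, Rps4l and Rps27l, are copies of other ribosomal protein genes. Of 6 genes tested from a list of such copies, 1, 2 and 2 were higher in the 3 comparisons against untreated. Among all genes 5.09%, 11% and 18.2% were higher. Rps4l, a single-exon copy on chromosome 6 (chr6:148354656-148355598, GRCm38) that GENCODE M21 types as a transcribed processed pseudogene, had 79.0, 143, 166, 80.2 and 72.6 in the untreated tumours and 387, 408, 245, 187 and 239 in the combination. All combination tumours were above all untreated tumours (1.45 ± 0.34, adjusted p = 0.00175, limma). Its lowest, median and highest values were 103, 255 and 308 after beta-glucan and 148, 241 and 442 after anti-CD40 (1.29 ± 0.32, adjusted p = 0.00662, limma). With every tumour scaled to the same total, the Rps4l calls in the combination and after anti-CD40 did not pass (adjusted p = 0.109 and 0.248, limma). Rps27l, a close relative of Rps27 known as a p53 target, had 992, 1149, 1454, 1123 and 775 in the untreated tumours and 1408, 2713, 1771, 1258 and 2644 in the combination. After anti-CD40 its lowest, median and highest values were 1355, 1765 and 4822, the highest being in anti-CD40 6. It rose by 0.97 ± 0.28 after anti-CD40 (adjusted p = 0.0159) and 0.79 ± 0.29 in the combination (adjusted p = 0.0365) on the log2 scale, by limma. With the acinar level as a linear term, or with every tumour scaled to the same total, neither Rps27l call passed. The combination call was also lost without untreated 6 (0.67, adjusted p = 0.0846, limma), and without untreated 1, 2 or 5 or combination 2, 3 or 5.

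Rpl3l, the striated-muscle form of Rpl3, was at 0 to 12.5 in the untreated tumours and at 0 to 25.2 in the treated tumours, and its difference did not pass in any comparison. A skeletal and heart muscle list had a mean log2 level of 5.34, 4.63, 4.83 and 4.03 in the 4 groups, and 6 of its 11 genes in the table did not reach the minimum value.

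Against beta-glucan alone the combination differed in 1 member, Rpl36, which was higher (0.62 ± 0.20, adjusted p = 0.0402, limma), against 6.49% of all genes higher and 7.61% lower. Its combination tumours had 2745, 1827, 2211, 2799 and 1956, beside 1065 to 2202 after beta-glucan. Of the 76 members, 40 were below 0 (52.6%, against 49.3% of all genes). The Rpl36 call was lost in 4 of 9 other settings and in 8 of the 22 fits that left out 1 tumour. Against anti-CD40 alone 0 members passed by limma, against 1.48% of all genes in either direction, with 7 at an unadjusted p under 0.05 (9.21%, against 15.7% of all genes), and edgeR called 0 and DESeq2 1. Of the 76, 67 were below 0 in that comparison (88.2%, against 49.1% of all genes), with a median of -0.22. These signs are not independent, as the members share each tumour's library and size factor. For 3 members, Rps7, Rpl37 and Rpl13a, every combination tumour was below every anti-CD40 tumour (3.95%, against 0.497% of all genes). The interaction of the agents passed for 0 members by limma, against 0.021% of all genes, with 3 at an unadjusted p under 0.05 (3.95%, against 8.36% of all genes), and for 0 by edgeR and by DESeq2.

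The acidic stalk proteins Rplp0, Rplp1 and Rplp2, which activate the elongation factors' GTPases, did not pass in any comparison. Rplp0 was at 8917 ± 1142 in untreated tumours, 8532 ± 1973 after beta-glucan, 9302 ± 3324 after anti-CD40 and 7744 ± 1634 in the combination (SD). Rplp1 reached 53204 in combination 4 and 53360 in anti-CD40 6, and at most 36056 in the other tumours. Rpl5 and Rpl11, which bind 5S RNA and can hold Mdm2 in ribosome stress, did not pass either. Rpl11 was at 11988 ± 3866, 11969 ± 1099, 12867 ± 2904 and 11282 ± 2446 in the 4 groups. Rps6, the substrate of the S6 kinases, had 275 ± 52.9, 254 ± 54.4, 232 ± 38.5 and 239 ± 68.7, and Rps3, with roles in DNA repair, 8882 ± 1728, 8030 ± 585, 9853 ± 1153 and 8856 ± 973. Rpsa, also known as a laminin receptor precursor, had 3474 ± 740, 2616 ± 743, 3344 ± 825 and 2711 ± 497. Rps19, mutated in Diamond-Blackfan anaemia, had -0.52 ± 0.21 in the combination (adjusted p = 0.0564, limma). Rps27a, made as a fusion with ubiquitin, had 326 ± 168, 239 ± 106, 348 ± 297 and 288 ± 207.

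**Figure D4:**
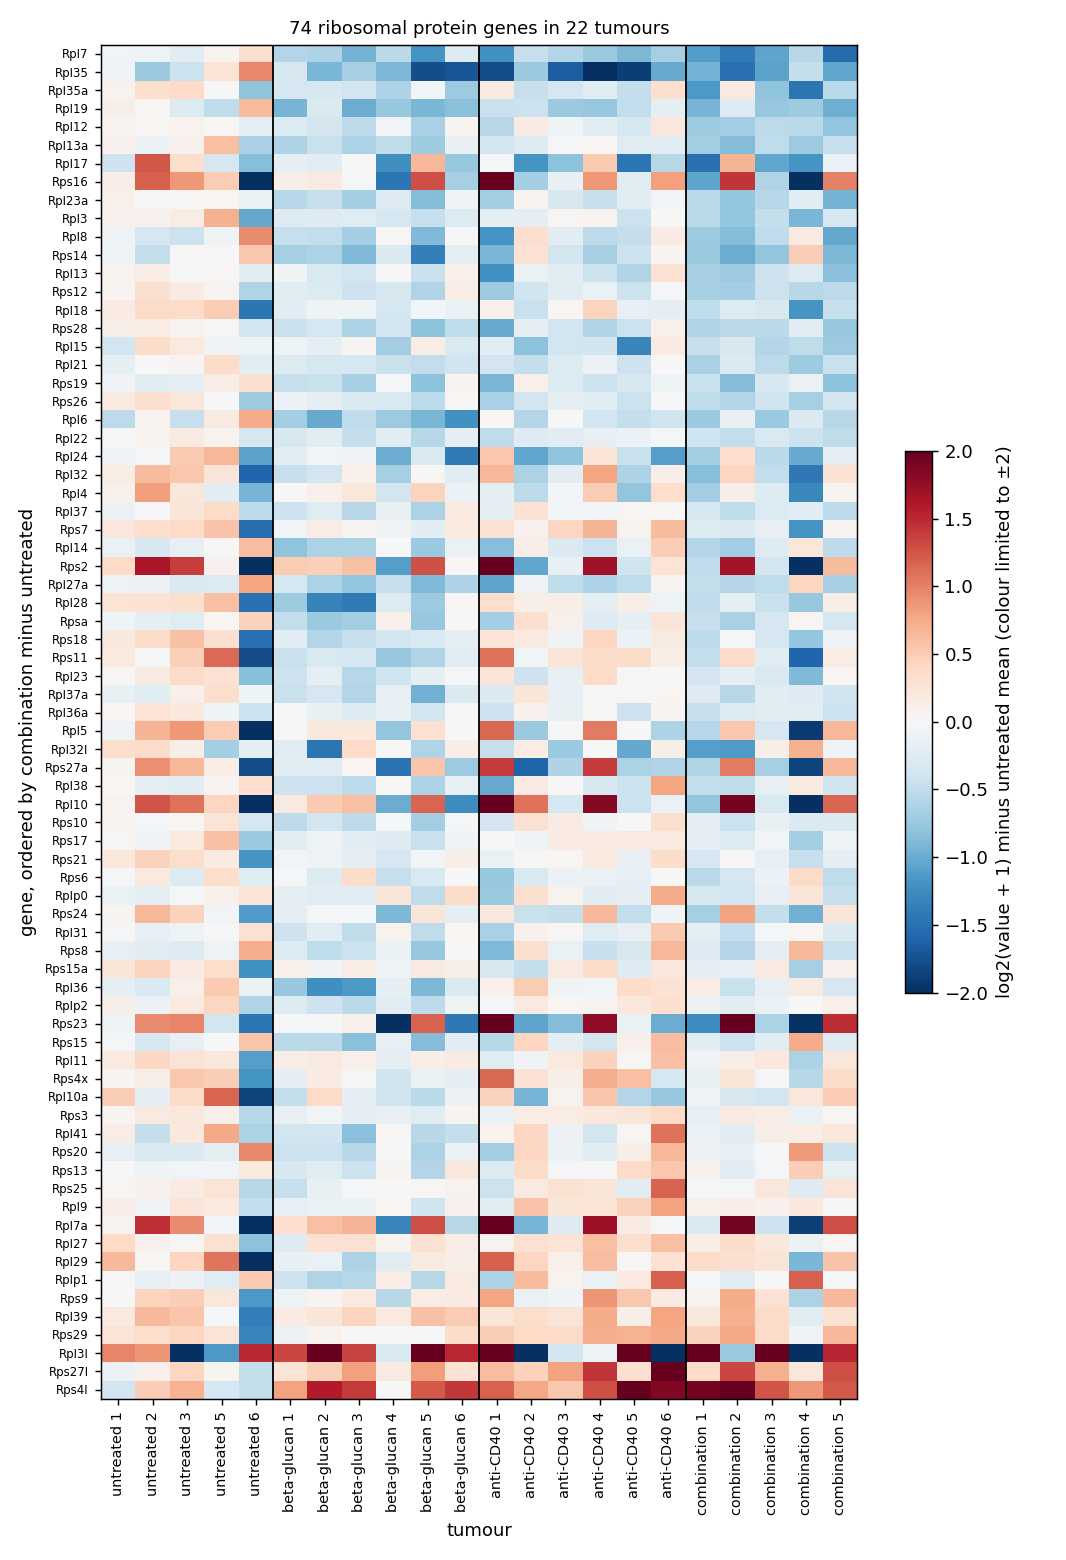
Rows are 74 of the 76 genes, ordered by the combination minus untreated difference, and columns the 22 tumours. Colour is log2(value + 1) minus the untreated mean, limited to ±2; Rpl7 is at the top and Rps4l at the bottom, and a few rows such as Rps2 and Rpl7a change strongly from tumour to tumour within every group.

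The members differed in how much they varied between tumours of the same group. The median within-group SD was 0.388 on the log2 scale, against 0.571 over all genes tested, and it was 0.347 for the 57 members with a mean of at least 1000 and 0.669 for the 19 below. Outside Rpl3l, the members with the largest within-group SD were Rps2 (1.51), Rpl10 (1.46), Rps16 (1.42), Rps23 (1.37), Rpl7a (1.27), Rps27a (1.05), Rpl5 (0.876), Rpl17 (0.768) and Rpl29 (0.714). These 9 were picked after their values were seen.

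The 9 moved together within groups. Once each group's mean was removed, the median pairwise Pearson r over the 22 tumours was 0.87 (36 pairs, from 0.34 to 0.98), against 0.26 among the other 66 members. All members share a tumour's library and size factor, and the 9 were chosen for their spread. Rps2, which sits at the mRNA entry, had 1075, 2573, 2167, 874 and 72.6 in the untreated tumours and 580, 2629, 644, 86.3 and 1277 in the combination. Rps16 had 308, 643, 516, 402 and 42.6 in the untreated tumours and 136, 757, 186, 18.6 and 565 in the combination. Untreated 6 and combination 4 were the low tumours in both genes, and combination 2 was the highest of its group. Their mean deviation over the 9 genes was -2.19 in untreated 6 and -1.98 in combination 4, and the share of reads in the ribosomal RNA precursor Rn45s was highest in combination 4 (4.79%) and next in untreated 6 (3.74%). The highest deviations were 1.53 in combination 2 and 1.35 in anti-CD40 1, where Rn45s took 2.22% and 1.40%. The part of RNA quality or mapping in this pattern was not tested.

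Copies elsewhere in the genome bear on several members. Of the 74 members matched to a protein-coding transcript of GENCODE M21, 25 shared no 50-base word of their last 200 bases with a transcript of another gene, 32 shared at least 50% and 5 shared all. Genes that overlap a member's own position were not counted as other genes here. Rpl7 shared 57.0% with 6 pseudogenes, Rpl23a 68.2% with 19, Rps6 72.2% with 10 and Rpl10 100%. The share shared had a Pearson r of -0.12 and a Spearman rho of -0.12 with the log2 level across the 74 genes, which are not independent. Of the 9 variable genes, Rps16, Rps23 and Rpl5 shared none by this count, but Rpl5 did share words with a gene that overlaps it.

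Other genes of the translation machinery, from lists of known function, gave a setting for these values. Of 43 ribosome assembly and rRNA synthesis genes tested, 1 was lower after beta-glucan (2.33%, against 1.32% of all genes), 6 after anti-CD40 (14%, against 7.56%) and 22 in the combination (51.2%, against 15.8%), with 0 higher in any, and a median of -0.72 in the combination. Npm1, a nucleolar chaperone, went from 5145 ± 687 in untreated tumours to 1844 ± 461 in the combination (-1.50 ± 0.21, adjusted p = 7.5e-06, limma). Nop58, a core protein of box C/D particles, changed by -1.45 ± 0.20 (adjusted p = 7.7e-06, limma). Among 20 other genes with tracts of the same kind, 2, 4 and 7 were lower in the 3 comparisons (10%, 20% and 35%, against 1.32%, 7.56% and 15.8% of all genes) and 0 higher. Fau, which encodes the small-subunit protein eS30 and lies outside the naming rule, was lower in each, at -0.88 ± 0.19, -0.68 ± 0.19 and -0.65 ± 0.19. Of 24 initiation factors 0, 0 and 4 were lower (16.7% in the combination, near the 15.8% of all genes), and of 6 elongation factors 0, 0 and 1, Eef1b2.

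The 74 mitochondrial ribosomal protein genes tested, whose products build the separate ribosome of mitochondria, had 0, 3 and 19 lower in the 3 comparisons (0%, 4.05% and 25.7%, against 1.32%, 7.56% and 15.8% of all genes) and 0, 0 and 1 higher (against 5.09%, 11% and 18.2%), with a median of -0.23 in the combination beside -0.33 for the cytosolic genes. Of 16 mTOR, MYC and tract regulators, 1 was higher after anti-CD40 (Max), and in the combination Max and Rheb were higher and Mycn was lower (-3.46 ± 0.77, adjusted p = 0.00122, limma). Without untreated 6 the calls for Max and Rheb were lost (adjusted p = 0.0737 for Max after anti-CD40, 0.0883 for Max and 0.145 for Rheb in the combination, limma). Of 11 integrated stress response genes 0 passed by limma in any of the 3, Chac1 at 1.23 ± 0.57 in the combination having an unadjusted p of 0.0408.

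**Figure D5:**
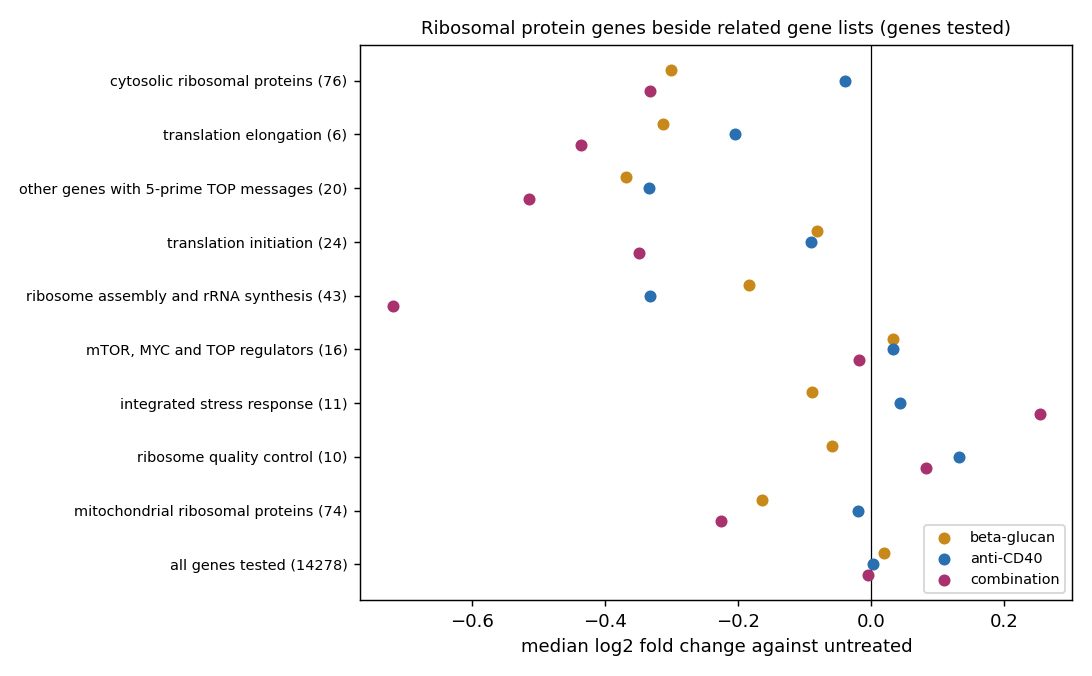
Points are median log2 fold changes against untreated over the genes of each list, with the number tested in parentheses. The cytosolic ribosomal protein genes sit at -0.30, -0.04 and -0.33, the ribosome assembly genes reach -0.72 in the combination, and all genes together sit near 0.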

How the data were processed

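The authors deposited 1 table of normalized counts, a signal in which read counts were divided by a size factor per tumour. Per the submitters' processing notes, STAR, DESeq2 and mm10 were used; for the counter, annotation and strand setting nothing is given in the sources used here. All 395252 values were whole reads within 0.001 after division by each tumour's smallest step (100%). The members and lists were chosen with earlier results of these data known. Genes at 10 or more in at least 5 tumours were fitted as log2(value + 1) on 4 group means with limma 3.58.1 (trend, robust; R 4.3.3), and p-values were adjusted by Benjamini-Hochberg over 14278 genes at 0.05. Alternatives were another pseudocount (8), no filter, 3 other scalings, edgeR 4.0.16 and DESeq2 1.42.0 on recovered reads, a replicate block, an acinar term and leaving out each tumour. The fit was tested on simulated data with the same dispersion for every gene, where small fold changes were seldom called. The members spread less than all genes (median within-group SD 0.388 against 0.571), so that outcome need not hold for them. A member that did not pass is still not shown to be unchanged. Named were members called in a contrast (at most 8 each), the largest rises and falls, the highest and lowest levels and a set of well-known or duplicated members; others named were chosen after their values were seen. Windows and gene positions are from RefSeq GRCm38.p6 and GENCODE M21. Columns without a sample numbered 0. Results of 2 members are counted but not reported singly here.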

Additional observations from a re-analysis of the deposited data

Results flagged for a closer look

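Across 29 named members and 2 summaries, 124 groups of 5 or 6 tumours were examined for a tumour far from the rest. Of these, 11 were picked out, where chance gives about 1 in 20 for independent groups. These groups share each tumour's library and size factor and are not independent, so an excess over chance is not shown. In untreated 6 lie 5 of the 11. In untreated 6 the share of reads in ribosomal protein genes was 5.18% (nearest other 7.69%) and their mean log2 level 10.89. Its Rpl12 was 10016 (nearest 11624), Rpl11 5232 (12866) and Rps3 5900 (9090), each the lowest of its group. In beta-glucan 4, Rpl11 was 9790 (nearest 12029), Rpl5 384 (663) and Rpl3l 2.85 (10.9), again the lowest of the group. In beta-glucan 2, Rpl19 was the highest at 301 (nearest 218). In combination 4, Rps14 was the highest at 85387 (nearest 36366) and Rplp1 at 53204 (23316).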

How the results depend on the processing

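After beta-glucan, 6 became 0 with equal totals, 3 with equal totals without the acinar list, 3 by edgeR, 12 by DESeq2 and 12 without untreated 6 and anti-CD40 6 (added after seeing the data). After anti-CD40, 4 became 12 with equal totals, 9 with equal totals without the acinar list, 14 with quantile normalization and 8 without those tumours. All genes called went from 2650 to 2394, 2505, 2663 and 2726 in the same order. In the combination 18 became 30 with quantile normalization (2 higher, 28 lower), while all genes called went from 4849 to 4987. The combination against beta-glucan gave 3 with equal totals without the acinar list, 9 with quantile normalization, 0 with an acinar term and 0 by edgeR, instead of 1. All genes called were 1824, 2294, 1461 and 1877 in the same order, instead of 2013. The combination against anti-CD40 gave 1 by DESeq2 (665 of all genes) and 1 without untreated 6 and anti-CD40 6 (578), instead of 0 (212). Any difference among groups gave 21 by DESeq2 and 26 without those tumours, instead of 13. The combination's share of reads was 5.37% without acinar reads. Equal totals moved the median of all genes by -0.56 after anti-CD40 and -0.45 in the combination.

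Leaving out each tumour gave 2 to 11, 4 to 8 and 11 to 25 members in the comparisons with untreated, 0 to 1 for the combination against beta-glucan and against anti-CD40, 0 to 0 for the interaction and 8 to 28 for any difference; untreated 6 gave the highest of 11, 8, 25 and 28. Without untreated 1, untreated 5, beta-glucan 3 or beta-glucan 5 the beta-glucan count was 2, and without untreated 1, 2 or 5 the combination count was 11. Shares of reads ranged 7.15% to 7.93%, 5.64% to 6.19%, 4.45% to 5.31% and 3.93% to 4.38%. With the replicate block the counts were 5, 4 and 15 against untreated, 1, 0 and 0 for the others and 9 for any difference. Among all genes that block called 969, 2683 and 4790 against untreated, and 2387, 223 and 8 for the others. Same-numbered tumours had a median correlation of 0.03 over 30 pairs, so the numbers were not read as a pairing. Combination 5 is numbered from its title, while its description and column carry the number 6; with 6 in the replicate block (added after seeing the data) the counts were 5, 4, 13, 1, 0, 0 and 8. No called member changed direction in the settings run, but the anti-CD40 median moved between -0.19 (without untreated 6) and 0.03 (without untreated 5).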
